A study of Mus musculus with 8 samples.

Results

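The metabolite-sensing nuclear receptors of the liver were examined in mouse liver RNA sequencing. The set was defined by gene symbol as Nr1i2, Nr1i3, Nr1h4, Nr1h3, Nr0b2, Nr5a2, Rxra, Rxrb and Esr1. All 9 symbols were present among the 21358 genes of the deposited table. All 9 also passed a filter on low values of at least 1 FPKM in at least 4 of 8 libraries, which 9867 genes passed. FPKM is a fragment count scaled for gene length and library size, so levels can be compared between genes.

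The SG (starvation glucose) group held libraries 101, 103, 104 and 105, and the FG (feeding glucose) group held libraries 93, 94, 95 and 96. Both groups came from mice described as a model of metabolic dysfunction that had fasted every other day for 22 weeks. As far as the labels say, glucose was taken in the starved state in SG and in the fed state in FG. The labels give no strain, sex, age or batch and no time of sampling relative to food or glucose. Apart from sex, for which Xist and Ddx3y values are given below, such differences cannot be told apart from the group. Each group is stated as n = 4, without saying that these were 4 animals, and the p-values cover library-to-library spread, which may be technical.

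Nuclear receptors are transcription factors whose activity is set by small lipophilic ligands. Several of those described here bind DNA as a heterodimer with a retinoid X receptor. In the liver they sense foreign compounds (PXR and CAR, encoded by Nr1i2 and Nr1i3), bile acids (FXR, Nr1h4) and oxysterols (LXR alpha, Nr1h3). SHP (Nr0b2) has no DNA-binding domain and represses other receptors, among them LRH-1 (Nr5a2), which binds DNA as a monomer. ER alpha (Esr1) is the estrogen receptor of hepatocytes.

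Genes of the set lie on several chromosomes of build GRCm38. Nr1i2 (NCBI gene 18171) spans positions 38248349 to 38294849 of chromosome 16. Nr1h3 (NCBI gene 22259) spans positions 91184061 to 91202829 of chromosome 2. Nr0b2 (NCBI gene 23957) spans positions 133553376 to 133556686 of chromosome 4. All 9 genes matched at least 1 RefSeq window around an annotated start in GRCm38.p6, with 14 windows in all. The 250 bases before each start were searched on both strands for the hexamers AGGTCA and GGGTCA, to which many nuclear receptors bind, and for the LRH-1 octamers CAAGGTCA, which contains AGGTCA, and CAAGGCCA. Matches were found in 4 of the 14 windows, of Nr1h4, Nr0b2, Nr5a2 and Rxra. Among all 32851 windows of the same length, 14.0% held AGGTCA, 11.6% GGGTCA, 1.33% CAAGGTCA and 1.99% CAAGGCCA.

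The upstream windows given here are those of the member that rose (Nr1i2, chr16:38294825-38295074, minus strand), of the uncalled member whose log2 fold change on the deposited scale was farthest from 0 (Nr0b2, chr4:133553126-133553375, plus strand) and of Nr5a2, whose product binds the Nr0b2 promoter (chr1:136960449-136960698, minus strand). They come from RefSeq, build GRCm38.p6, and run 5′ to 3′ on the strand of the gene. Capitals mark the matches to the 4 motifs.
Nr1i2: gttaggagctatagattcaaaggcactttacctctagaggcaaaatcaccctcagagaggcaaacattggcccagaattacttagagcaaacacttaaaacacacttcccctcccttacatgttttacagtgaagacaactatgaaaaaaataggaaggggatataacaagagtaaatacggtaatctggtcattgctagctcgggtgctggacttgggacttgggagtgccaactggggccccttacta
Nr0b2: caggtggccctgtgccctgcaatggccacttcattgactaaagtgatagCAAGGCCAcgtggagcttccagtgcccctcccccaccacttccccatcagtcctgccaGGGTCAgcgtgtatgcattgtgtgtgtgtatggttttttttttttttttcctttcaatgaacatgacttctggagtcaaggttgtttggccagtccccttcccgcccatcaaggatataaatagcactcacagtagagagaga
Nr5a2: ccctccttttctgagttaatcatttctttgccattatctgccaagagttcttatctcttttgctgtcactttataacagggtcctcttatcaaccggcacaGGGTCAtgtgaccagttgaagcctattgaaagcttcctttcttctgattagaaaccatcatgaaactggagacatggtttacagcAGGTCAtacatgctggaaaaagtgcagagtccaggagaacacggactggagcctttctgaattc
The Nr0b2 window held CAAGGCCA from base -201 and GGGTCA from base -143 before the start. The Nr5a2 window shown held GGGTCA from base -149 and AGGTCA from base -64. The other Nr5a2 window, chr1:136953631-136953880, held none of the 4 motifs and is not shown. The Nr1i2 window held none of these letters, which says nothing about the factors that bind there.

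Each library held 36479956 to 39141440 fragments in SG and 38175359 to 41894909 in FG, summed over the listed genes after recovery of whole fragments from the FPKM steps. These are the smallest whole counts that matched the steps, so the true totals may be higher. The tissue label matched the hepatocyte marker Alb, at 35965 to 49861 FPKM in SG and 38211 to 45639 FPKM in FG. Of the 6 hepatocyte markers, Cps1 and Apoa1 were called higher in SG by limma at an adjusted p below 0.05, beside 3.73% of all tested genes, also after median-ratio scaling. Summed hepatocyte markers stood at 49281 to 65129 FPKM in SG and 47582 to 57551 FPKM in FG. Cps1 lost its call without SG 105 (adjusted p = 0.0517) and with quantile scaling (adjusted p = 0.0592), and Apoa1 in each fit without 1 library (highest adjusted p = 0.102). Xist was at most 0.00891 FPKM and the Y-linked Ddx3y at least 0.904 FPKM in every library, as in male liver. Of the markers of other liver cells, the summed endothelial markers stood at 81.1 to 88.9 FPKM in SG and 103 to 121 FPKM in FG, and the summed cholangiocyte markers at 13.0 to 19.1 FPKM in SG and 21.9 to 27.7 FPKM in FG. Clec4g and Fcgr2b, 2 of 6 tested endothelial markers, and Spp1, 1 of 2 tested cholangiocyte markers, were called lower in SG, beside 15.6% of all tested genes. None of these 3 was called after median-ratio scaling (adjusted p of 0.0625 for Clec4g, 0.384 for Fcgr2b and 0.0760 for Spp1) or trimmed-mean scaling. Leaving out FG 93 ended the call of Clec4g (adjusted p = 0.0514), leaving out any 1 library that of Fcgr2b (highest adjusted p = 0.124), and leaving out SG 104, SG 105, FG 93, FG 94 or FG 95 that of Spp1 (highest adjusted p = 0.0619). The cholangiocyte gene Cftr was close to 0, at most 0.0447 FPKM. Summed Kupffer cell markers overlapped, at 92.2 to 188 FPKM in SG and 95.6 to 154 FPKM in FG, as did stellate cell markers, at 62.7 to 84.8 FPKM in SG and 62.1 to 109 FPKM in FG, and lymphocyte markers, at 2.64 to 4.28 FPKM in SG and 1.32 to 4.45 FPKM in FG. The part of these cell types in the results was not tested, and in bulk tissue fewer cells of a type cannot be told apart from less RNA per cell.

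SG was compared with FG to ask whether receptor expression depended on taking glucose during starvation or during feeding. Values were fitted as log2(FPKM + 1) with limma over all tested genes, and a gene was called at a Benjamini-Hochberg adjusted p below 0.05, two-sided. Of the 9 receptors, Nr1i2 rose and Nr1h3 fell in SG. Of all tested genes 19.4% were called, 3.73% higher and 15.6% lower, so 1 of 9 members lower is not a larger share than in the table as a whole. Values of the 4 SG and 4 FG libraries did not overlap in 2 of the 9 members, beside 26.1% of all tested genes. The median log2 fold change of the 9 members was -0.09, and that of all tested genes -0.14. Median-ratio scaling moved the median of all tested genes to 0.006, and the calls of all genes to 516 higher and 468 lower, beside 368 higher and 1544 lower on the deposited scale.

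**Figure D1:**
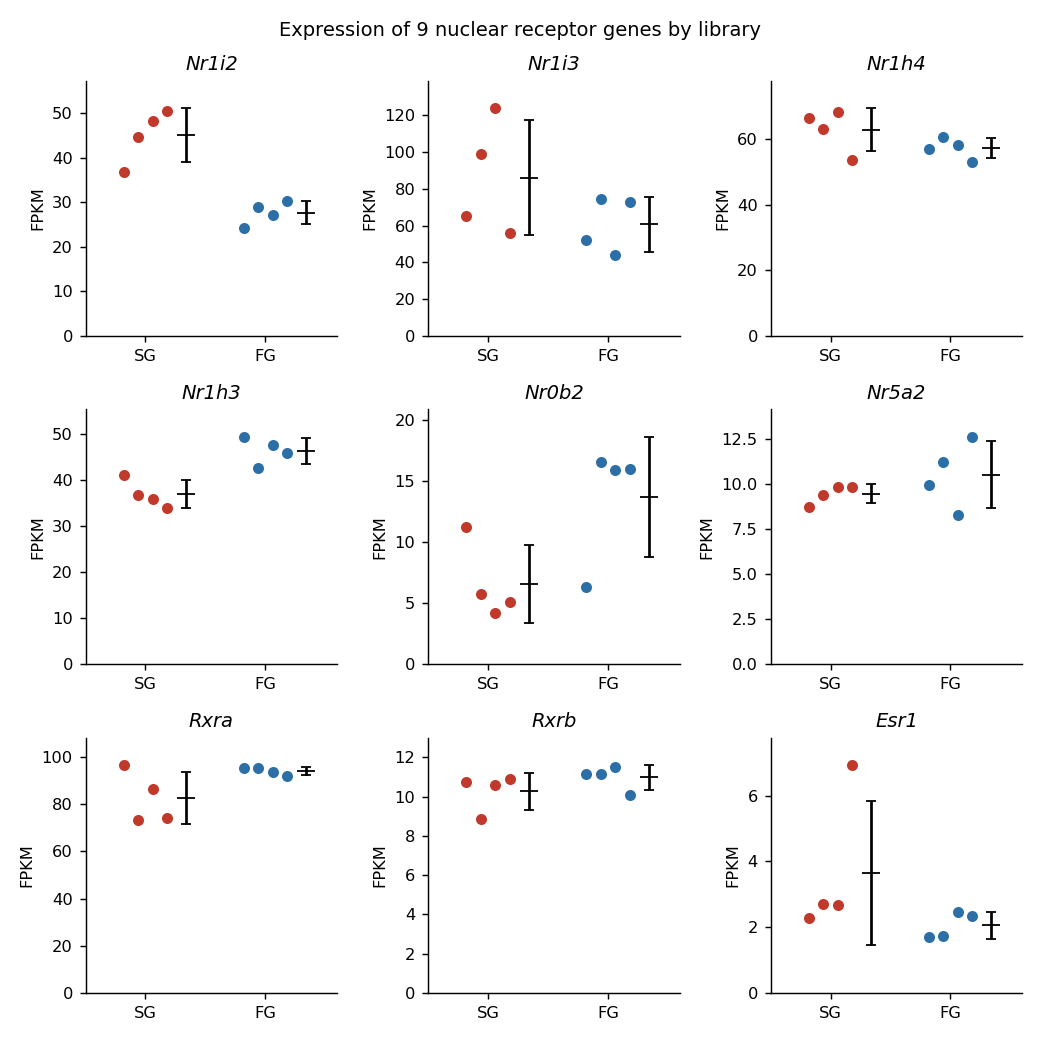
FPKM of each of the 9 receptor genes (vertical axes, starting at 0) in the 4 SG and 4 FG libraries (points, in replicate number order), with the group mean and SD (bar, n = 4 each). Nr1i2 separates the groups with SG above FG and Nr1h3 with SG below FG, and single libraries stand apart for Nr0b2 (FG 93, 6.38 FPKM) and Esr1 (SG 105, 6.92 FPKM).

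The levels of the 9 genes spanned a wide range. In SG the order of the mean FPKM was Nr1i3, Rxra, Nr1h4, Nr1i2, Nr1h3, Rxrb, Nr5a2, Nr0b2 and Esr1. The libraries of neighbours in this order overlapped for Nr1i3 and Rxra, for Nr1i2 and Nr1h3, and for every neighbouring pair from Rxrb to Esr1. In FG the order was Rxra, Nr1i3, Nr1h4, Nr1h3, Nr1i2, Nr0b2, Rxrb, Nr5a2 and Esr1. There the neighbours Nr1i3 and Nr1h4, Nr0b2 and Rxrb, and Rxrb and Nr5a2 overlapped. Over all 8 libraries Rxra lay at the 93.4th percentile of the mean FPKM of tested genes, Nr1i3 at the 92.1th, Nr1h4 at the 90.8th, Nr1h3 at the 87.7th and Nr1i2 at the 86.4th. Rxrb, Nr0b2 and Nr5a2 lay between the 63.7th and 65.4th percentile and Esr1 at the 27.0th.

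Nr1i2, which encodes the pregnane X receptor, a sensor of drugs and of some bile acids, was the member with the smallest p. It stood at 36.9, 44.8, 48.2 and 50.6 FPKM in SG 101, 103, 104 and 105. In FG 93, 94, 95 and 96 it stood at 24.3, 28.9, 27.3 and 30.4 FPKM. Every SG library lay above every FG library. Nr1i2 averaged 45.1 ± 6.0 FPKM in SG and 27.7 ± 2.63 FPKM in FG (SD, n = 4 each), a 1.63-fold difference of the means. The log2 fold change was 0.68 (SE 0.117, 95% interval 0.42 to 0.94, limma adjusted p = 0.00753). The exact two-sided permutation p was 0.0286, the smallest that the 70 assignments of 4 and 4 libraries can give. The call held in each of the 18 alternative fits, with log2 fold changes of 0.62 to 0.85 and adjusted p of 0.00143 to 0.0261. Between 2509 and 5298 fragments lay behind each library's value.

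Nr1i3 encodes the constitutive androstane receptor, which is active without ligand and is held in the cytoplasm until xenobiotic signals release it. It was at 65.5, 99.1, 124 and 56.2 FPKM in SG 101, 103, 104 and 105. It was at 51.9, 74.3, 44.3 and 72.7 FPKM in FG 93, 94, 95 and 96. The groups overlapped, and SG 101 and SG 105 lay below 2 FG libraries. The log2 fold change was 0.46, with a 95% interval from -0.13 to 1.05 (SE 0.262, limma adjusted p = 0.243). The annotated Nr1i3 gene shares 1044 bases with Tomm40l, whose level was 3.80 ± 0.429 FPKM in SG and 4.77 ± 0.689 FPKM in FG (SD, n = 4 each). The ratio of Nr1i3 to Nr1i2 FPKM was 1.11 to 2.56 in SG libraries and 1.62 to 2.57 in FG libraries.

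Of 22 tested genes that PXR or CAR induce in mouse liver, 7 rose and 3 fell in SG, beside 3.73% and 15.6% of all tested genes. The other 12 were not called. The list's median log2 fold change was 0.55, against -0.14 for all tested genes. After median-ratio scaling 8 members were called higher and 1 lower. Without 1 library in turn, 6 to 8 members were called higher and 0 to 3 lower. Cyp2b10, the classical CAR-induced cytochrome P450, was at 6.14, 2.08, 3.71 and 8.78 FPKM in SG 101, 103, 104 and 105, and at 0.306, 0.655, 0.951 and 0.715 FPKM in FG 93, 94, 95 and 96. All SG values of Cyp2b10 lay above all FG values, at a low level for a liver P450 (limma adjusted p = 0.00825). Slco1a4, an organic anion uptake transporter induced through PXR, rose to 33.6 ± 13.8 FPKM in SG, against 9.66 ± 2.16 FPKM in FG. Por, the reductase that supplies electrons to microsomal P450s, rose to 398 ± 72.0 FPKM in SG, against 211 ± 18.5 FPKM in FG. Ces2a, a carboxylesterase, rose to 170 ± 3.25 FPKM in SG, against 120 ± 9.98 FPKM in FG (limma adjusted p = 0.00615).

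Cyp3a13 rose to 42.4 ± 3.04 FPKM in SG, against 24.0 ± 2.17 FPKM in FG (SD, n = 4 each; limma adjusted p = 0.00179). The calls of Cyp3a13, Cyp2b10, Cyp2c54, Ces2a, Slco1a4 and Por held without each library in turn. Cyp2c50 lost its call without SG 101, SG 103, SG 104, FG 93, FG 95 or FG 96 (highest adjusted p = 0.0894). Its call was also lost with quantile normalization (limma adjusted p = 0.0645) and with no filter. Reads of Cyp2c50 and Cyp2c54 are hard to divide among close paralogs. Cyp3a11, the main PXR-induced P450 of mouse liver, was at 1442, 2339, 2318 and 2300.2 FPKM in SG 101, 103, 104 and 105. In FG 93, 94, 95 and 96 Cyp3a11 was at 1527, 1155, 1745 and 1138 FPKM, and SG 101 lay within the FG range. Its log2 fold change was 0.59, with a 95% interval from 0.15 to 1.03, and it did not pass (limma adjusted p = 0.0645). Other uncalled members differed in direction. Positive log2 fold changes were 0.68 for Gadd45b, 0.65 for Cyp2c55, 0.57 for Cyp3a25, 0.55 for Alas1 and 0.54 for Cyp2c37. Smaller positive ones were 0.11 for Aldh1a1 and 0.03 for Abcc2. Negative ones were -0.05 for Cyp2c29, -0.07 for Ugt1a1, -0.27 for Abcc3 and -0.37 for Cyp2a5. The 3 members that fell were Gstm1 and Gsta1, glutathione transferases with close paralogs, and Abcb1a, a drug efflux pump at 1.22 ± 0.285 FPKM in SG and 2.32 ± 0.635 FPKM in FG. Gstm1 lost the call without FG 93 (adjusted p = 0.0516). Gsta1 lost it without SG 103, SG 104, SG 105, FG 93 or FG 95 (highest adjusted p = 0.0989). Abcb1a lost it without SG 101, SG 103, SG 105, FG 93 or FG 95 (highest adjusted p = 0.0931). Gsta1 and Abcb1a also lost the call under all 3 other scalings, with median-ratio adjusted p of 0.0611 for Gsta1 and 0.0874 for Abcb1a.

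**Figure D2:**
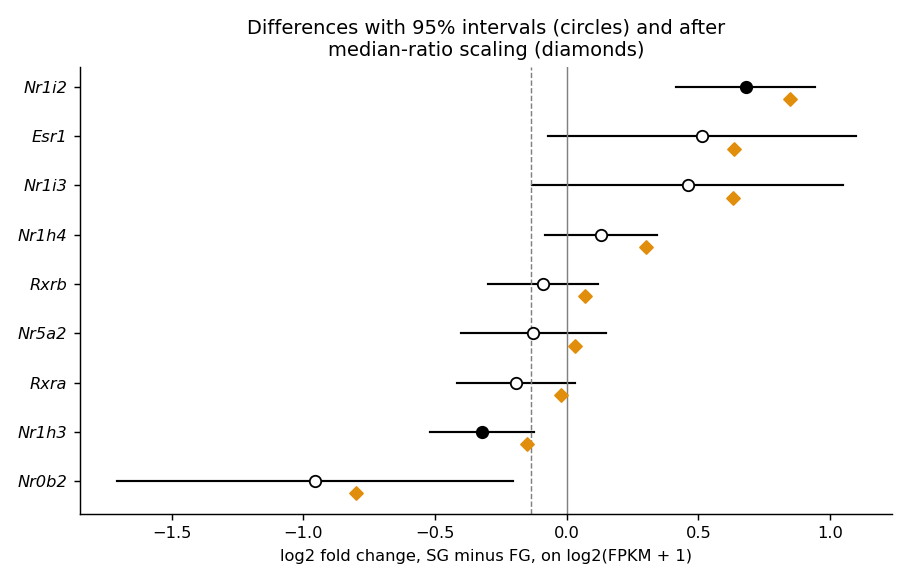
Log2 fold change of each receptor gene, SG minus FG, with its 95% interval (circle and line; filled circles were called by limma) and the value after median-ratio scaling (diamonds). The solid line marks 0 and the dashed line the median of all tested genes, -0.14; the interval of Nr1i2 runs from 0.42 to 0.94, and Nr0b2 lies lowest at -0.96 with a wide interval.

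The bile acid branch holds Nr1h4, Nr0b2 and Nr5a2. Nr1h4, the farnesoid X receptor, was at 66.5, 63.2, 68.2 and 53.7 FPKM in SG 101, 103, 104 and 105. It was at 56.9, 60.5, 58.1 and 53.1 FPKM in FG 93, 94, 95 and 96. The groups overlapped because SG 105 lay within the FG range. The log2 fold change was 0.13, with a 95% interval from -0.08 to 0.34 (SE 0.0951, limma adjusted p = 0.357).

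Nr0b2 encodes SHP, the small heterodimer partner through which FXR lowers bile acid synthesis. It was at 11.2, 5.78, 4.19 and 5.14 FPKM in SG 101, 103, 104 and 105. It was at 6.38, 16.6, 16.0 and 16.0 FPKM in FG 93, 94, 95 and 96. FG 93 lay within the SG range and SG 101 stood above the other SG libraries. Nr0b2 averaged 6.58 ± 3.16 FPKM in SG and 13.7 ± 4.91 FPKM in FG (SD, n = 4 each), and the log2 fold change of -0.96 did not pass (SE 0.334, 95% interval -1.71 to -0.20, limma adjusted p = 0.0730, exact permutation p = 0.0571). The gene passed without FG 93 (log2 fold change -1.26, adjusted p = 0.0293), without SG 101 (-1.21, adjusted p = 0.0247) and with library weights (-1.27, adjusted p = 0.00967), and its adjusted p ran from 0.00967 to 0.179 over the alternatives. Nr0b2 rested on 202 to 859 fragments per library.

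Nr5a2, the liver receptor homolog LRH-1, was at 8.73, 9.40, 9.85 and 9.83 FPKM in SG 101, 103, 104 and 105. It was at 9.95, 11.3, 8.28 and 12.6 FPKM in FG 93, 94, 95 and 96. The SG values lay inside the FG range. Its log2 fold change was -0.13, with a 95% interval from -0.40 to 0.15 (SE 0.122, limma adjusted p = 0.488), and turned to 0.031 with median-ratio, 0.030 with trimmed-mean and 0.025 with quantile scaling. The FXR beta gene Nr1h5, a related receptor that is functional in mice, was at 0.626 to 1.40 FPKM in SG and 0.154 to 1.02 FPKM in FG. The ratio of Nr1h4 to Nr0b2 FPKM was 5.93, 10.9, 16.3 and 10.5 in SG 101, 103, 104 and 105, and 8.92, 3.66, 3.64 and 3.31 in FG 93, 94, 95 and 96.

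**Figure D3:**
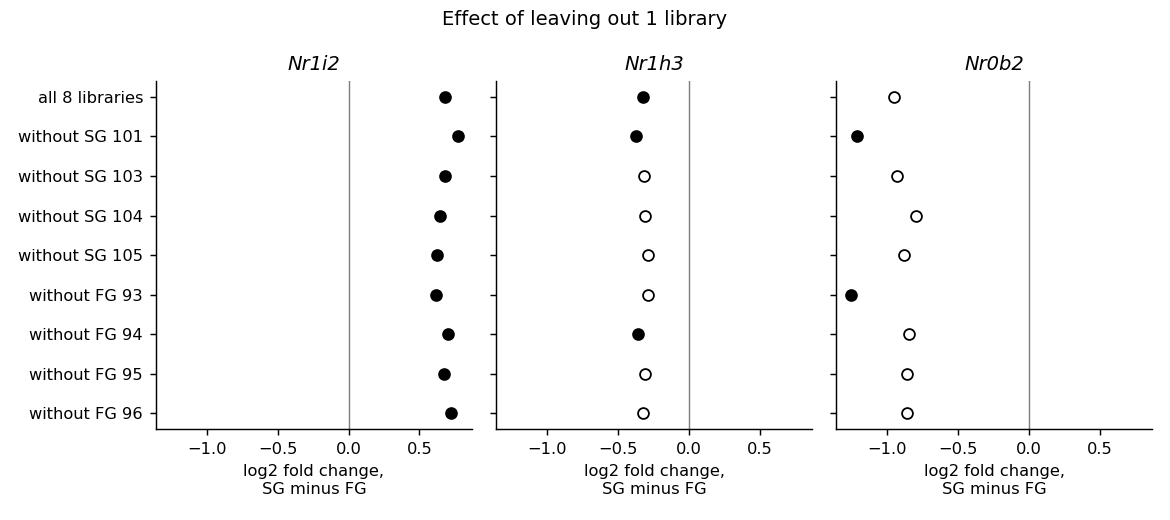
Log2 fold change, SG minus FG (shared horizontal axis), of Nr1i2, Nr1h3 and Nr0b2 with all 8 libraries and without each library in turn; filled points were called by limma. Nr1i2 stays between 0.62 and 0.77 and called, Nr1h3 is called in 2 of the 8 fits without 1 library, and Nr0b2 is called without SG 101 or FG 93.

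Of 11 tested genes that FXR induces in liver, Nr0b2 among them, 2 rose and 2 fell, beside 3.73% and 15.6% of all tested genes. The share that fell is close to that of all genes, and the list's median log2 fold change was 0.03, against -0.14 for all tested genes. Abcb11, the bile salt export pump and a direct FXR target, fell in SG with all SG values (43.6 to 61.6 FPKM) below all FG values (89.9 to 117 FPKM). Sdc1, the heparan sulfate proteoglycan syndecan-1, rose, at 62.1 to 122 FPKM in SG and 37.0 to 44.1 FPKM in FG (limma adjusted p = 0.0133). Slc27a5, a bile acid CoA ligase, rose to 417 ± 29.3 FPKM in SG, against 320 ± 26.8 FPKM in FG, and lost the call without SG 103 or FG 93 (highest adjusted p = 0.0652). Pltp, the phospholipid transfer protein, fell but lost the call without SG 103, SG 104, SG 105, FG 93 or FG 94 (highest adjusted p = 0.0969) and after median-ratio scaling (adjusted p = 0.119). Slc51b, a subunit of the basolateral bile acid exporter, lay below the filter, at 0.317 to 0.897 FPKM in SG and 0.375 to 2.25 FPKM in FG.

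Of the 4 genes listed as repressed through FXR and SHP, 3 rose and 1 fell, beside 3.73% and 15.6% of all tested genes. Cyp7a1, which catalyses the rate-limiting step from cholesterol to bile acids, was at 84.5 to 140 FPKM in SG and 7.96 to 44.2 FPKM in FG. Cyp8b1, the sterol 12-alpha hydroxylase, was at 217 to 293 FPKM in SG and 59.6 to 115 FPKM in FG. In both genes the groups did not overlap. Cyp27a1, the mitochondrial sterol 27-hydroxylase, rose by less (log2 fold change 0.45, limma adjusted p = 0.0179) and lost the call without SG 104 or FG 93 (highest adjusted p = 0.0536). Slc10a1, the bile acid uptake transporter of the sinusoidal membrane, fell (log2 fold change -0.69, limma adjusted p = 0.00576). Of 9 tested LRH-1 targets, a list that also holds Cyp7a1, Cyp8b1 and Nr0b2, 3 rose, beside 3.73% of all tested genes, and the median log2 fold change was -0.22, against -0.14 for all tested genes. Apoa1, the third, lost its call in all 8 fits without 1 library (highest adjusted p = 0.102).

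Nr1h3, the oxysterol receptor LXR alpha, was at 41.2, 36.7, 35.9 and 34.1 FPKM in SG 101, 103, 104 and 105. It was at 49.5, 42.7, 47.7 and 45.8 FPKM in FG 93, 94, 95 and 96. Every SG library lay below every FG library, with SG 101 and FG 94 close to each other. Nr1h3 averaged 37.0 ± 3.02 FPKM in SG and 46.4 ± 2.87 FPKM in FG (SD, n = 4 each), 1.26-fold lower in SG. The log2 fold change was -0.32 (SE 0.0877, 95% interval -0.52 to -0.12, limma adjusted p = 0.0341, exact permutation p = 0.0286). The call was lost after median-ratio (log2 fold change -0.15, adjusted p = 0.323), trimmed-mean (-0.15, adjusted p = 0.291) and quantile scaling (-0.22, adjusted p = 0.0714). It was also lost without SG 103, SG 104, SG 105, FG 93, FG 95 or FG 96 (highest adjusted p = 0.0965), and its adjusted p ran from 0.00982 to 0.323 over the alternatives. Nr1h3 is also expressed in Kupffer cells, whose summed markers overlapped between the groups as given above.

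Nr1h2, the LXR beta paralog, was at 9.17, 9.02, 9.64 and 8.50 FPKM in SG 101, 103, 104 and 105, and at 12.3, 11.4, 14.4 and 10.6 FPKM in FG 93, 94, 95 and 96. It was called lower in SG (log2 fold change -0.38, limma adjusted p = 0.0350), but not with median-ratio scaling (adjusted p = 0.207), nor without SG 103, SG 104, SG 105, FG 93, FG 94 or FG 95 (highest adjusted p = 0.0890). The ratio of Nr1h3 to Nr1h2 FPKM was 4.07 ± 0.317 in SG and 3.86 ± 0.430 in FG (SD, n = 4 each). Of 15 tested genes that LXR induces, 1 rose and 4 fell, beside 3.73% and 15.6% of all tested genes, with a median log2 fold change of -0.28, against -0.14 for all tested genes. Those that fell were Scd1 (stearoyl-CoA desaturase), Fasn (fatty acid synthase), Srebf1 (the lipogenic regulator SREBP-1) and Pltp. Srebf1 was at 15.8 to 51.6 FPKM in SG and 68.6 to 107 FPKM in FG. The member that rose was Cyp7a1, which LXR induces in mice.

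The sterol efflux transporters of the LXR list did not pass. Abca1, which lipidates apolipoprotein A-I, was at 14.5 to 20.9 FPKM in SG and 14.6 to 23.8 FPKM in FG (95% interval of the log2 fold change -0.48 to 0.27). Abcg5 was at 60.5 ± 12.3 FPKM in SG and 67.7 ± 10.2 FPKM in FG (SD, n = 4 each; interval -0.55 to 0.20). Abcg8, its partner in biliary sterol export, was at 41.2 ± 8.09 FPKM in SG and 50.8 ± 5.94 FPKM in FG (interval -0.66 to 0.04). Mylip, the LXR-induced ligase that degrades the LDL receptor, was at 3.39 ± 0.564 FPKM in SG and 4.39 ± 0.536 FPKM in FG (limma adjusted p = 0.116).

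**Figure D4:**
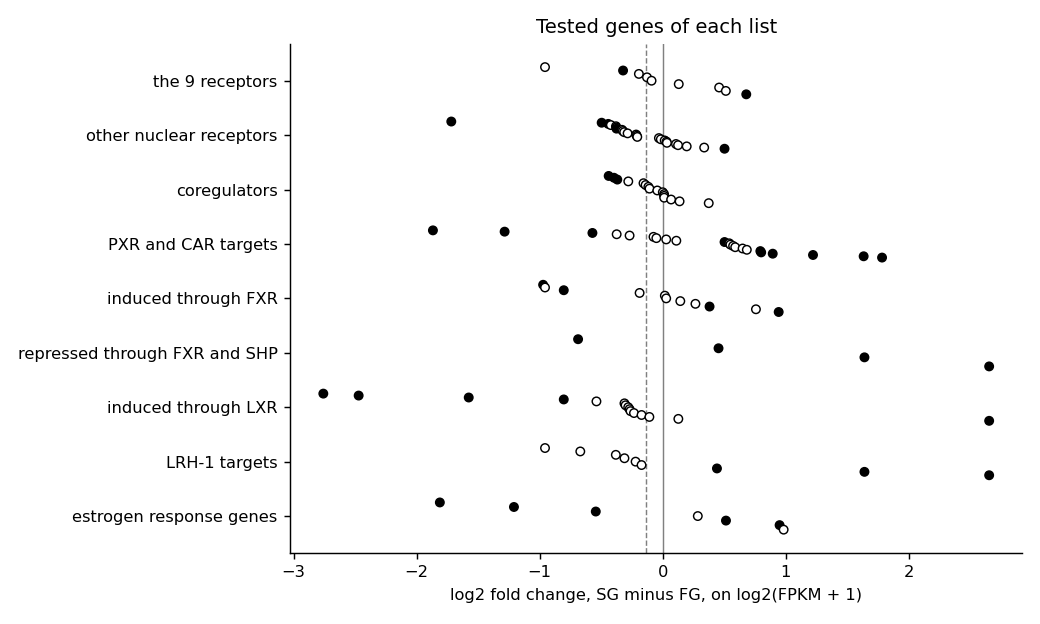
Log2 fold change, SG minus FG, of the tested genes of each list (1 point per gene; filled points were called by limma; the solid line marks 0 and the dashed line the median of all tested genes, -0.14). Some genes stand in several lists, Cyp7a1 at 2.65 in 3 of them, and the list of PXR and CAR targets has a median of 0.55.

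The retinoid X receptors are the shared partners of PXR, CAR, FXR and LXR. Rxra was at 96.5, 73.3, 86.4 and 74.2 FPKM in SG 101, 103, 104 and 105, and at 95.2, 95.2, 93.5 and 91.9 FPKM in FG 93, 94, 95 and 96. SG 101 lay above every FG library and the other SG libraries below every FG library. The log2 fold change was -0.19, with a 95% interval from -0.42 to 0.03 (limma adjusted p = 0.198), and Rxra passed without SG 101 (-0.27, adjusted p = 0.0482; range over the alternatives 0.0482 to 0.922).

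Rxrb was at 10.7, 8.85, 10.6 and 10.9 FPKM in SG 101, 103, 104 and 105, and at 11.2, 11.1, 11.5 and 10.1 FPKM in FG 93, 94, 95 and 96. The groups overlapped, with SG 103 lowest. Its log2 fold change was -0.09, with a 95% interval from -0.30 to 0.12 (SE 0.0928, limma adjusted p = 0.517), and turned to 0.070, 0.069 and 0.057 with median-ratio, trimmed-mean and quantile scaling. Rxrg, the third isotype, was at 1.19 to 1.76 FPKM in SG and 1.84 to 3.07 FPKM in FG and did not pass (limma adjusted p = 0.0780). Rxra made up 87.5% ± 1.23 of the summed FPKM of the 3 isotypes in SG and 87.7% ± 0.847 in FG (SD, n = 4 each), and Rxrb 9.87% to 12.6% in SG and 9.71% to 10.7% in FG.

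Esr1 was at 2.27, 2.70, 2.69 and 6.92 FPKM in SG 101, 103, 104 and 105. It was at 1.69, 1.72, 2.47 and 2.35 FPKM in FG 93, 94, 95 and 96. SG 105 stood apart from all other libraries, and SG 101 lay within the FG range. The log2 fold change was 0.51, with a 95% interval from -0.07 to 1.10 (SE 0.259, limma adjusted p = 0.189). Without SG 105 it was 0.22 (adjusted p = 0.294; range over the alternatives 0.108 to 0.362). Of 7 tested estrogen response genes, most of them known from human breast cells, 2 rose and 3 fell, beside 3.73% and 15.6% of all tested genes. The list was not divided by direction of response, and its median log2 fold change was 0.29, against -0.14 for all tested genes. Ccnd1 (cyclin D1), Xbp1 and Ctsd (cathepsin D) fell, and Ccng2 (cyclin G2) and Cxcl12 rose. Ctsd lost its call without FG 93 (adjusted p = 0.0551) and after median-ratio scaling (0.107), and Cxcl12 without SG 103, SG 104, FG 95 or FG 96 (highest adjusted p = 0.0601). The progesterone receptor gene Pgr was listed at 0 in every library but SG 103, where it was close to 0, and Greb1 was at most 0.0473 FPKM.

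Among the rest of the superfamily, 36 of 40 listed receptor genes were found and 24 tested. Of these, 4 fell, beside 15.6% of all tested genes called lower, and the median log2 fold change was -0.21. Nr1d1, the clock repressor REV-ERB alpha, fell to 6.22 ± 3.46 FPKM in SG, against 20.7 ± 2.79 FPKM in FG (SD, n = 4 each), and held its call in each fit without 1 library and each scaling. Nr2f2 (COUP-TFII) and Nr3c2 (the mineralocorticoid receptor) were the other genes that fell beside Nr1h2, and neither was called after median-ratio scaling (adjusted p = 0.0615 for Nr2f2 and 0.140 for Nr3c2). Nr2f2 also lost it without SG 105 or FG 93 (highest adjusted p = 0.0574), and Nr3c2 without SG 103, SG 104, SG 105, FG 94, FG 95 or FG 96 (highest adjusted p = 0.104). Hnf4a, a master regulator of hepatocyte genes, was at 129 ± 20.4 FPKM in SG and 125 ± 13.6 FPKM in FG (95% interval of the log2 fold change -0.26 to 0.33), and Ppara, the fatty acid sensor, at 41.6 ± 2.03 FPKM in SG and 40.9 ± 4.74 FPKM in FG (-0.19 to 0.26).

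Of 16 tested coregulators 3 fell, a share close to the 15.6% of all tested genes called lower, and the median log2 fold change was -0.08, against -0.14 for all tested genes. They were the coactivators Ncoa1 and Prmt1 and the corepressor subunit Tbl1x. None of the 3 held under median-ratio scaling (adjusted p of 0.0764 for Ncoa1, 0.154 for Prmt1 and 0.191 for Tbl1x) or without SG 104, SG 105 or FG 93. Ncoa1 also lost it without FG 94, Prmt1 without SG 103, FG 95 or FG 96, and Tbl1x without SG 103, FG 94, FG 95 or FG 96 (highest adjusted p over the 3 genes 0.109). No coregulator was called higher in SG on the deposited scale, against 1 after median-ratio scaling. Tbl1xr1 was at 1.84 to 2.88 FPKM in SG and 1.40 to 1.72 FPKM in FG. Its log2 fold change of 0.37 did not pass on the deposited scale (limma adjusted p = 0.0552). The corepressor Ncor1 was at 11.3 ± 1.62 FPKM in SG and 11.1 ± 1.32 FPKM in FG (SD, n = 4 each; 95% interval of the log2 fold change -0.27 to 0.29).

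The tested genes whose log2(FPKM + 1) followed each member most closely over the 8 libraries were listed by Pearson's r, as a description, since the libraries fall into 2 groups. For Nr1i2 these were Atp5j (0.981), Gm40438 (0.974) and Slco1a4 (0.972). For Nr1h3 they were Copa (0.996), Ergic3 (0.995) and Ergic1 (0.995), and for Nr0b2 Dhx8 (0.985), Gm41018 (0.955) and Haao (0.952). For Nr1i3 they were Polb, Tgif1 and Cpne3, for Nr1h4 Spp2, Trpt1 and Tmem134, and for Nr5a2 Srsf4, Slc4a1ap and Ndufaf4. For Rxra they were Map2k3, Sec22c and Vps53, for Rxrb Eif3k, Thap7 and Rsph3b, and for Esr1 Etnppl, Nt5dc3 and Cdkn1a. The closest gene had an r of 0.925 for Nr1h4, the lowest of the 9, and 0.996 for Nr1h3, the highest.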

How the data were processed

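Liver RNA of 4 SG and 4 FG libraries was sequenced, and the authors deposited 1 table of FPKM values, with 1 column per library. Reads were aligned with HISAT2 and expression quantified as FPKM by the authors, per the series' design text. The submitters' processing notes also name fastp, HTSeq and DESeq2 and the builds mm10 and GRCm38, with no version of any tool. The strand setting of the counting is not stated. Columns of per-sample values left unmatched numbered 0.

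Values were tested as log2(FPKM + 1) in limma 3.58.1 (R 4.3.3), with empirical Bayes and a mean-variance trend, no covariates, and Benjamini-Hochberg adjustment over 9867 genes. Fold changes are SG minus FG, and the pseudocount of 1 understates those of low genes. The exact permutation test used the difference of mean log2 values. Whole fragments were recovered from the FPKM steps for 100% of genes within 0.02 fragments. Column totals from the steps and from the sums of recovered fragments differed by at most 0.0316%. The fits and the recovery were tested on simulated data.

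The receptors and gene lists were chosen with earlier results of these data known. Named genes were all 9 members, Nr1h2 and Rxrg, called members of the lists, and the 3 tested genes with the highest r to each member. Uncalled list members and other genes given with values were chosen after their values were seen. Of the listed genes, 4 nuclear receptors, Sult2a1, Tff1 and Trbc2 were not analysed here. Gene positions and promoter windows come from RefSeq tables for GRCm38.p6. Alternatives covered the pseudocount, the filter, scaling, variance model, library weights, threshold and each left-out library. A fit of recovered fragments with limma voom was added after seeing the data. Some members of the lists are not reported here.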

Additional observations from a re-analysis of the deposited data

Results flagged for a closer look

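In 11 genes, the 9 receptors with Nr1h2 and Rxrg, the highest and lowest library of each group of 4 was compared with the others by Dixon's ratio of gap to range at the 95% critical value. Chance flags about 1 in 20 groups, and 4 of 22 groups held such a library. Nr0b2 was at 6.38 FPKM in FG 93, while the other FG libraries lay between 16.0 and 16.6 FPKM (ratio 0.942). Esr1 was at 6.92 FPKM in SG 105, while the other SG libraries lay between 2.27 and 2.70 FPKM (ratio 0.907). Rxrb was at 8.85 FPKM in SG 103, while the other SG libraries lay between 10.6 and 10.9 FPKM (ratio 0.838). Rxrg was at 3.07 FPKM in FG 95, while the other FG libraries lay between 1.84 and 2.04 FPKM (ratio 0.839). What set these libraries apart was not tested.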

How the results depend on the processing

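The call of Nr1i2 and its direction held in all 18 alternatives, and Nr1i3, Nr1h4 and Esr1 stayed uncalled with the same sign wherever they were tested (Esr1 lay below the filter at a mean of 5 FPKM). Of all tested genes 1912 were called, against 1133 with no filter, 984 with median-ratio scaling, 1042 with trimmed-mean scaling, 1078 with quantile normalization, 415 at an adjusted p below 0.01, and 834 to 2363 without 1 library. Members called lower numbered 1, against 0 with median-ratio, trimmed-mean or quantile scaling and at an adjusted p below 0.01, 2 with library weights, and 0 to 3 without 1 library. At an unadjusted limma p below 0.05, 1 member was lower after median-ratio or trimmed-mean scaling and 2 after quantile scaling, and limma voom on recovered fragments called Nr1h3. Nr5a2 turned from -0.13 to 0.031, 0.030 and 0.025, and Rxrb from -0.09 to 0.070, 0.069 and 0.057, with median-ratio, trimmed-mean and quantile scaling. These scalings remove the shift of -0.14 in the median of all genes. Counts of calls per gene list were equal or stayed within 1.5 times in 438 of 540 comparisons. Some lists, such as the Kupffer cell, stellate cell and lymphocyte markers, had 0 calls in every fit. Their comparisons set 0 against 0, so the share overstates how stable the counts of the other lists were. No paired analysis was possible because the groups share no replicate numbers. Nr0b2 rested on 202 to 859 fragments per library.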

Other observations

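Values below were chosen after they were seen and were not tested. Ppargc1a, the coactivator PGC-1 alpha of several of these receptors, lay below the filter, at 0.764, 0.892, 2.30 and 2.38 FPKM in SG 101, 103, 104 and 105 and at 0.511 to 0.810 FPKM in FG. FG 93, the FG library with the low Nr0b2 value, also stood apart in some list genes of other kinds. In the fit with library weights, FG 93 had a weight of 0.859, beside 0.508 for FG 95 and 0.337 for SG 101, the lowest. Myc was at 19.1 FPKM in FG 93 and at 1.09 to 1.88 FPKM in the other FG libraries, and at 4.87 to 11.2 FPKM in SG. Lpl, lipoprotein lipase, was at 21.9 FPKM in FG 93 and at 4.46 to 6.23 FPKM in the other FG libraries. Des, desmin, was at 32.0 FPKM in FG 93 and at 1.86 to 4.14 FPKM in the other FG libraries. Marco, a macrophage scavenger receptor, was at 46.7 FPKM in SG 101 and at 4.48 to 7.71 FPKM in the other SG libraries.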
